A study of Mus musculus with 2 samples.

Results

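The 400 stromal cells described here were the highest for a score of Smpd3, Chst1, Pcsk6 and Opcml among 7010 cells of gonadal white adipose tissue (gWAT), of 17404 cell barcodes in all. The score was the mean over the 4 genes of the natural log of 1 plus unique molecular identifiers (UMIs) per 10000 of the cell. The 7010 cells, called the gate, had more than 1000 and fewer than 7000 genes detected, under 8% mitochondrial UMIs, fewer than 5 UMIs of 5 mesothelial genes (Msln, Upk3b, Krt19, Lrrn4 and Upk1b), under 1% immunoglobulin UMIs (Igkc, Ighm, Igha and Jchain), fewer than 3 UMIs of Calca and Ncam1, and fewer than 10 UMIs of Pi16 and Dpp4. The levels of these genes therefore chose the cells, and no test of the cells against the rest was made. The other 6610 cells of the gate are called the rest.

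Both libraries came from gWAT of 18-month-old male mice that carried a tamoxifen-inducible Cre (CreERT2) driven by p16 and a Cre-dependent tdTomato reporter at Rosa26. All the mice received tamoxifen, after which a cell with p16 promoter activity during the treatment becomes tdTomato positive. Cells negative for CD31 and CD45 were sorted into tdTomato-positive cells (Tom+, labelled p16high) and tdTomato-negative cells (Tom-, labelled p16low). One 3′ single-cell library was made of each sort, and the number of mice behind it is not given in the sources used here. Sort and library preparation cannot be told apart, cells are not replicates, and every interval below is a 95% interval that covers counting error only.

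White adipose tissue holds mesenchymal progenitors at several stages. Interstitial progenitors, known for Dpp4, Pi16, Cd55 and Anxa3, lie in the connective tissue around the depot and can give rise to committed preadipocytes, which carry Icam1, Fabp4 and Pparg and stand closer to the fat cell. Of the 4 score genes, Smpd3 encodes neutral sphingomyelinase 2, which releases ceramide from sphingomyelin. Chst1 encodes a sulfotransferase that adds sulfate to galactose of keratan sulfate, Pcsk6 a secreted proprotein convertase, and Opcml an IgLON cell adhesion protein held by a lipid anchor.

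In the GRCm38 genome, the build of the files, Smpd3 lies on chromosome 8 from 106252548 to 106337988, Chst1 on chromosome 2 from 92599707 to 92615250, Pcsk6 on chromosome 7 from 65861734 to 66050386 and Opcml on chromosome 9 from 27790775 to 28925410. The 150 bases just before a start in RefSeq (GRCm38.p6) are shown for Chst1 and for Efhd1, Cd55, Ackr3 and Tek, which were among the 20 highest of the genes that reached 50 CPM on average, so that genes that moved together can be read side by side. Of the 4 score genes and these 20, 15 were matched in the RefSeq table, and windows were kept for the 9 that held no exon of the GENCODE annotation. Only RefSeq starts Chst1 at this point: its window lies within the longer gene span given above, outside its exons. Capitals mark GC boxes (GGGCGG on either strand), a motif bound by Sp1.
Chst1, chr2:92600967-92601116, plus strand: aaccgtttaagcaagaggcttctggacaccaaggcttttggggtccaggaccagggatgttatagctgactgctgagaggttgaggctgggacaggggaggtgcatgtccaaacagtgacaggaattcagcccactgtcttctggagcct
Efhd1, chr1:87264203-87264352, plus strand: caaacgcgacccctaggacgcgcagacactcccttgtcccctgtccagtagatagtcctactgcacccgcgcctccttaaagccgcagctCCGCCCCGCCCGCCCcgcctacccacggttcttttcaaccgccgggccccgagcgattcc
Cd55, chr1:130462745-130462894, minus strand: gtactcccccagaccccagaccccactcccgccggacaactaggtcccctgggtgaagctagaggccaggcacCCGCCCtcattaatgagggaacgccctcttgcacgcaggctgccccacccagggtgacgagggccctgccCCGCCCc
Ackr3, chr1:90203830-90203979, plus strand: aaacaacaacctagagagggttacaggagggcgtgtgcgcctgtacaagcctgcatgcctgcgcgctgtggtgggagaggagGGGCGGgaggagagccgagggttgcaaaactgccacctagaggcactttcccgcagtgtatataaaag
Tek, chr4:94739139-94739288, plus strand: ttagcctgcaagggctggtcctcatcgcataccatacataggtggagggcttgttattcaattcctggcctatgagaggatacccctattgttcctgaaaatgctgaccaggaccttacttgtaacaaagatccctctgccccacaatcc
The windows of Edn1, Sbsn, Dact1 and Trio were also kept and are not printed. Of the 9, 4 held a GC box, with 1 in Ackr3, 2 in Cd55, 3 in Efhd1 and 4 in Dact1, and Chst1, Tek, Edn1, Sbsn and Trio held none. Over all 27025 windows of this length, 29.0% held at least 1. Ackr3 held the TATA letters TATAAA once, as did 8.08% of all windows on either strand. The GC content was 48.7% for Tek, 54.0% for Chst1, 58.0% for Ackr3, 66.7% for Efhd1 and 69.3% for Cd55, from 48.7% to 82.7% (Dact1) over the 9, and the median of all windows was 54.0%. A match is a description of letters and not a binding site.

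Of the 400 cells, 229 were Tom+ and 171 were Tom-. They made up 8.12% (7.14 to 9.19) of the 2819 Tom+ cells of the gate and 4.08% (3.5 to 4.72) of the 4191 Tom- cells. Tom+ cells were 57.2% of the 400 (52.2 to 62.2) and 39.2% of the rest (38.0 to 40.4). With Opcml left out of the score the Tom+ share of the 400 was 52.5%. With Smpd3, Chst1 or Pcsk6 left out it was between 55.8% and 59.5%. The numbers of Tom+ and Tom- cells loaded were set by the sort, so the shares within each sort are the ones to compare.

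Depth was close between the groups within a library. The 400 cells had a median of 13049 UMIs in Tom+ and 11411 in Tom-, and the rest 14033 and 11020. The summed UMIs of the 400 were 3079602 in Tom+ and 1997349 in Tom-, and those of the rest were 37786217 and 46316256. Median mitochondrial shares were 4.13% and 3.65% in the 400 and 4.23% and 3.82% in the rest. Levels below are UMIs per 1000000 (CPM) of such a sum, and since only 3′ ends were counted they are compared within a gene. The libraries shared 2224 barcodes, which 302 cells of the gate and 13 of the 400 carried, and no barcode was among the 400 in both libraries.

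All the 400 cells had at least 2 of the 4 score genes detected, 185 had 3 and 184 had all 4. Smpd3 was at 462 CPM in Tom+ and 432 in Tom- of the 400, and at 56.3 and 50.2 in the rest. Chst1 was at 93.5 and 105 CPM, against 8.71 and 5.61. Pcsk6 was at 366 and 400 CPM, against 46.2 and 40.8, and Opcml at 188 and 170, against 42.2 and 19.1. In all 4 the libraries of the 400 lay close to each other and above both of the rest.

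As a description of the score, each gene was left out in turn, 400 cells were chosen by the other 3, and the gene left out was read in them. Smpd3 was then higher than in the other cells by 2.17 on the log2 scale (2.06 to 2.28) in Tom+ and 2.52 (2.39 to 2.65) in Tom-. Chst1 was higher by 2.49 and 3.38, Pcsk6 by 2.15 and 2.54, and Opcml by 1.64 and 2.41. The 4 genes had been put together with results of these data in view, so that they went together is not an independent finding. Between 300 and 334 of the 400 cells were chosen again.

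The score had no gap at its limit. The lowest score of the 400 and the highest outside were both 0.843, the fifth lowest inside was 0.845 and the fifth highest outside 0.835. Within 0.1 of the limit lay 101 of the 400 and 156 of the rest. The 400 cells are taken here as a range of the score. A fixed number of cells cut from a graded score leaves little gap by construction, so these values do not show whether the cells form a type.

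The limit on Pi16 and Dpp4 went through the cells of this score. It took 713 cells out of the gate, and 432 of them (60.6%, 56.9 to 64.2) had a score as high as that of the 400. Of the 832 cells with such a score, 51.9% (48.5 to 55.4) were thus over the limit. Without the limit the 400 highest cells shared 151 (37.8%) with those described here. The score thus did not set the 400 apart from cells rich in Pi16 and Dpp4, the markers of interstitial progenitors, and the cells are called here by the rule.

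The 400 cells themselves were not free of Pi16 and Dpp4. Their median was 3 UMIs of the 2 genes together in Tom+ and 4 in Tom-, while the median of the rest was 0 in both. Between 5 and 9 UMIs were found in 40.2% of the 400 and 5.22% of the rest, while 48 of the 400 and 66.2% of the rest had none. Dpp4, a cell surface peptidase, was at 163 and 138 CPM in the 400, 31.8 and 19.6 in the rest, and 359 and 371 in the 432 cells over the limit. Pi16, a secreted protein of progenitors in many tissues, was at 109 and 225 CPM in the 400, 27.8 and 53.1 in the rest, and 1370 and 1862 in the 432 cells. Both genes were used by the rule.

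Markers that the rule did not use placed the 400 cells among adipose progenitors. Pdgfra, the receptor that marks adipose progenitors, was at 419 and 333 CPM, against 377 and 296 in the rest. Pdgfrb, of the same list, was lower, at 129 and 81.6 CPM against 193 and 130. At least 2 of 6 progenitor markers were found in all the 229 Tom+ and 170 of the 171 Tom- cells. Dcn was the most abundant of them at 18621 and 18700 CPM, against 20678 and 23903 in the rest. Dcn also had a UMI in 99.7% of Tom+ and 99.9% of Tom- cells of the rest. The part of free RNA in such shares was not measured. The 5 endothelial markers summed to 1.62 CPM in Tom+ and 3.00 in Tom-, with Cldn5 at 0 in both, and pericyte and smooth muscle markers summed to 55.9 and 48.1, mostly Des. Macrophage markers summed to 104 CPM in Tom+ and 7.51 in Tom- of the 400, and to 241 and 41.5 in the rest. At least 2 macrophage markers were found in 2 of the 400 cells, both Tom+. The mature adipocyte markers had no UMI.

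Across genes, 8112 reached 10 CPM on average over the 4 sums, and 376 of them (4.64%) were at least 1.5-fold higher in the 400 than in the rest in both libraries, while 336 (4.14%) were at least 1.5-fold lower. The median gene was higher by 0.039 on the log2 scale in Tom+ and 0.060 in Tom-. These counts describe cells chosen by 4 genes and carry no test. The 4.64% and 4.14% are the shares to set beside each count of a gene list against the rest below.

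Among genes that reached 50 CPM on average, those highest in the 400, apart from those of the rule, included Efhd1, Nov, Sema3c, Cd55 and Anxa3. Less abundant genes such as Limch1, Sema3e and Dact2 had larger log2 differences than Cd55 and Anxa3. Efhd1, a calcium-binding protein of mitochondria, was at 102 CPM in Tom+ and 163 in Tom- of the 400, and 6.70 and 9.24 in the rest, a log2 difference of 3.93 (3.69 to 4.17) and 4.14 (3.93 to 4.35). Nov (also called Ccn3), a matricellular protein, was at 90.3 and 114 CPM against 7.17 and 10.5, higher by 3.65 (3.41 to 3.90) and 3.45 (3.21 to 3.68). A few cells held much of Nov in Tom-: 3 cells held 80 of 228 UMIs in the 400 and 140 of 485 in the rest, against 47 of 278 and 37 of 271 in Tom+. Nov had a UMI in 36.7% of Tom+ and 38.6% of Tom- cells of the 400, against 6.22% and 4.88%. Sema3c, a secreted semaphorin, was at 301 and 282 CPM against 39.2 and 26.6, higher by 2.94 (2.82 to 3.06) and 3.41 (3.26 to 3.55). In each case the libraries of the 400 lay above both of the rest.

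Cd55, which protects cells from complement, was at 486 and 647 CPM against 98.3 and 92.8, and Anxa3, an annexin, at 858 and 1045 against 215 and 221. Ackr3, a scavenging receptor for Cxcl12, was at 1104 and 1629 CPM against 341 and 387. Fn1, fibronectin, was at 4206 and 3946 CPM against 1534 and 984. Among these genes Fn1 was found in every one of the 400 cells, and in 94.8% of Tom+ and 87.7% of Tom- cells of the rest. Anxa3 was found in 97.4% of Tom+ and 99.4% of Tom- cells of the 400, against 72.0% and 63.5%.

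A pair of genes best known from endothelial cells were also high. Tek, the angiopoietin receptor Tie2, was at 158 and 169 CPM in the 400 against 51.3 and 36.7, and Edn1, the vasoconstrictor endothelin 1, at 166 and 70.6 against 37.0 and 20.5. The endothelial markers given above were near 0 in the same cells. The 20 highest that reached 50 CPM on average also held Tmem100, Lurap1l, Sbsn, Ifi27l2a, Emilin2, Fez1, Dact1, Has2, Slco3a1, Scara3 and Trio.

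**Figure D1:**
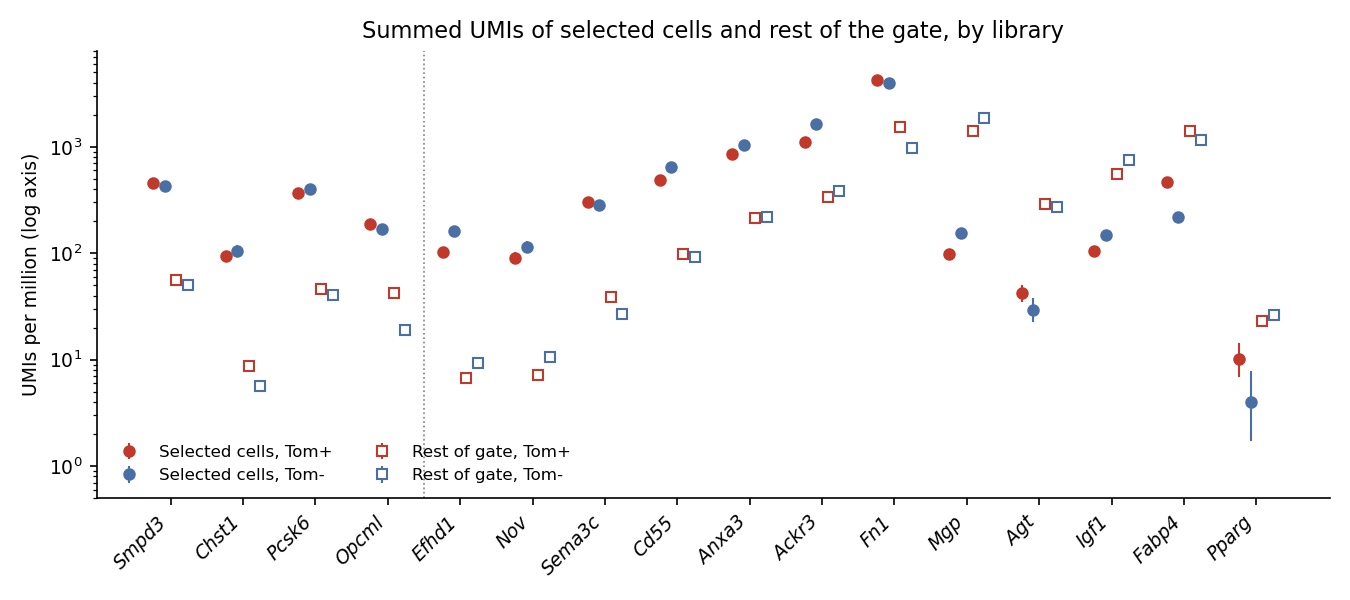
Levels in CPM (log axis) of the 4 score genes, left of the dotted line, and of 12 other genes in the 400 selected cells (filled points) and the rest of the gate (open squares), with Tom+ in red, Tom- in blue and 95% Poisson intervals as bars, which are mostly smaller than the symbols. From Smpd3 to Fn1 both filled points lie above both squares, and from Mgp to Pparg both lie under them.

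Thinning each cell to 6959 UMIs left shares of cells with a UMI that went the same way. Efhd1 was then found in 41.5% of Tom+ and 57.3% of Tom- cells of the 400, and in 4.38% and 4.20% of the rest, while the unthinned shares were 53.7% and 66.7% against 7.49% and 5.62%. Sema3c was found in 73.9% and 67.5% against 19.1% and 12.2%, with unthinned shares of 85.6% and 78.4% against 29.4% and 17.7%. Thinning left out 22 Tom+ and 14 Tom- cells of the 400 and 194 and 471 of the rest. In the mesothelial cells of the same libraries (median UMIs 18601.5 and 14753), Efhd1 had a UMI in 4.00% of 250 Tom+ and 2.17% of 1887 Tom- cells and Chst1 in 5.20% and 5.09%, while the unthinned shares in the rest were 7.49% and 5.62% for Efhd1 and 8.46% and 4.73% for Chst1. Smpd3 (217 and 148 CPM) and Sema3c (280 and 240 CPM) were present in the mesothelial cells as well.

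Of the genes that reached 50 CPM on average, the 12 lowest in the 400 are given here. Mgp, the matrix Gla protein that inhibits calcification, was at 97.7 CPM in Tom+ and 156 in Tom- of the 400 and 1406 and 1883 in the rest, lower by 3.84 and 3.59 on the log2 scale. Agt, angiotensinogen, was at 41.9 and 29.5 CPM against 290 and 274. Igf1, insulin-like growth factor 1, was at 104 and 148 CPM against 555 and 757. After thinning, Igf1 had a UMI in 25.6% of Tom+ and 31.8% of Tom- cells of the 400, against 63.5% and 73.7%, and unthinned in 39.3% and 38.0% against 73.6% and 79.7%. The microfibril protein Mfap4 was at 6.49 and 11.5 CPM against 91.4 and 151, and the 12 also held Saa3, C7, Fbln7, Tmem176a, Timp1, Trf, Serpina3n and Tmem176b. Less abundant genes could be as low: Acta2, a contractile actin, had 2 UMIs in Tom+ and 7 in Tom- of the 400, with log2 differences of -4.05 (-7.42 to -2.51) and -2.82 (-4.24 to -1.87).

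**Figure D2:**
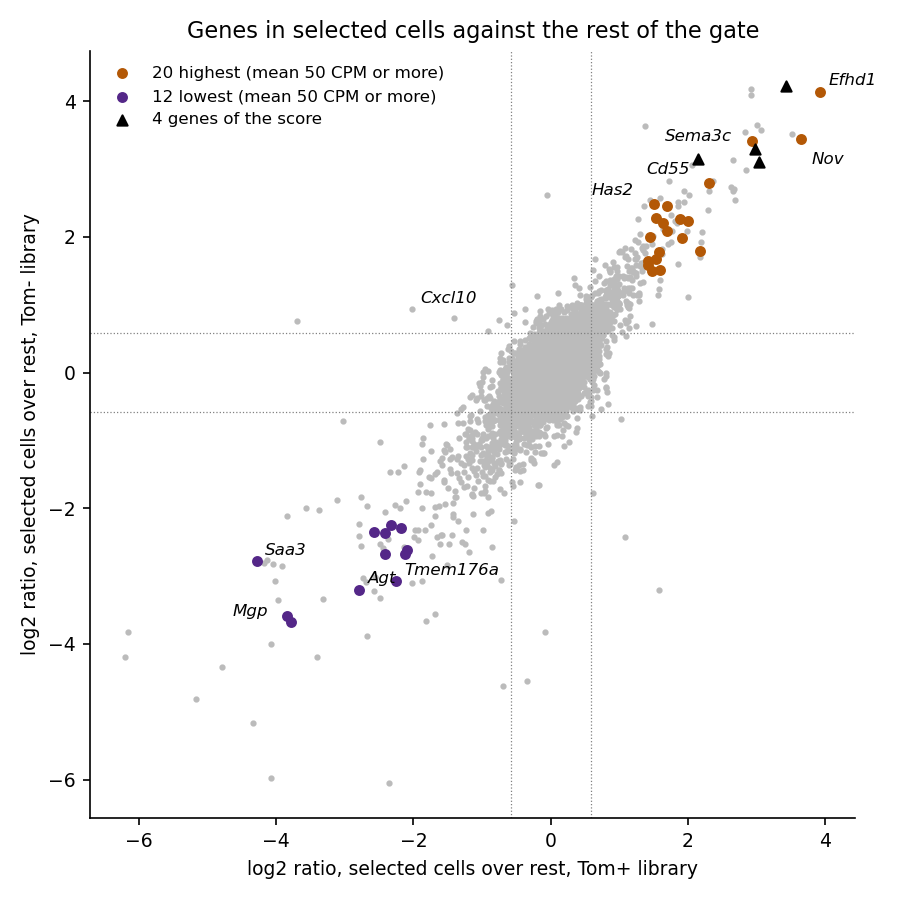
Each point is a gene that reached 10 CPM, placed by its log2 ratio of the 400 selected cells over the rest of the gate in the Tom+ library (x) and the Tom- library (y), with dotted lines at 1.5-fold, the 20 highest and the 12 lowest of the genes that reached 50 CPM on average in orange and purple, and the 4 score genes as triangles. The 376 genes past both lines lie at the upper right and the 336 lower genes at the lower left, and Cxcl10 lies at the upper left, with -2.02 in Tom+ and 0.94 in Tom-.

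Of 20 genes known from interstitial progenitors, Dpp4, Pi16, Smpd3, Pcsk6 and Opcml were used by the rule, and Bmp7 and Wnt2 had too few UMIs. Of the 13 others, 12 were higher in both libraries and none lower, with a median log2 difference of 1.92 in Tom+ and 2.0 in Tom-, beside 0.039 and 0.060 over all genes. Limch1, an actin-linked protein, was at 68.2 and 79.1 CPM against 8.52 and 6.30, and Stmn4, of the stathmin family, at 24.7 and 20.5 against 3.47 and 2.61. Cd248 (endosialin) was at 788 and 698 CPM against 306 and 205. Has1, a hyaluronan synthase, was the one not higher in both, with 0.54 in Tom+ and 1.12 in Tom-. Smpd3, Pcsk6 and Opcml, which chose the cells, are on this list. The list was also chosen with earlier results of these data known, so its counts are a description and not independent support.

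Genes of committed preadipocytes were lower. Of 20 tested, 17 were lower in both libraries and none higher, with medians of -1.39 and -1.78. Fabp4, the fatty acid carrier, was at 469 CPM in Tom+ and 220 in Tom- of the 400 and 1400 and 1162 in the rest. Lpl, lipoprotein lipase, was at 360 and 347 CPM against 1056 and 1046, and Plin2, a lipid droplet coat protein, at 81.5 and 73.1 against 241 and 225. Pparg, the master factor of fat cell differentiation, was at 10.1 and 4.01 CPM (31 and 8 UMIs) against 23.3 and 26.5. The 3 that were not lower in both were Cebpa, Fabp5 and Ggt5.

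Of 18 regulators of adipogenesis tested, Ebf2, Zfp521 and Nr3c1 were higher, and the 1 that was lower was Pparg, already counted among the committed preadipocyte genes. Ebf2, a factor of brown and beige precursors, was at 438 and 401 CPM against 200 and 168. Zfp521, an inhibitor of adipogenesis, was at 42.2 and 43.6 CPM against 26.2 and 19.3. Of 10 genes of the CD142+ regulatory cells, which restrain adipogenesis, 6 were lower and none higher, and F3 (CD142) itself was at 258 and 231 CPM against 252 and 341.

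**Figure D3:**
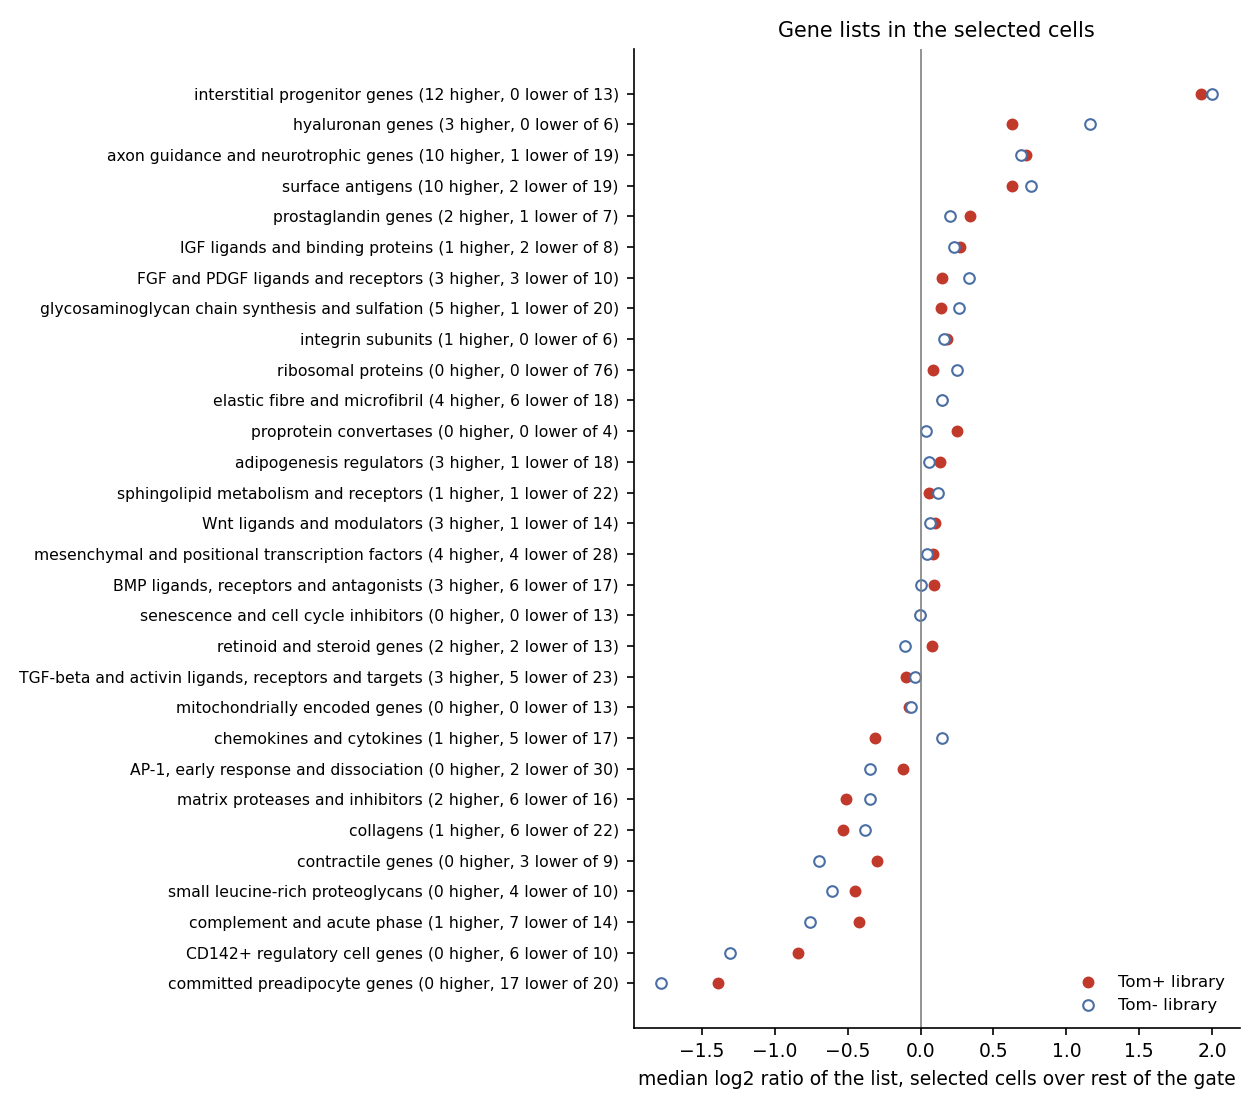
Median log2 ratio of each gene list in the 400 selected cells over the rest of the gate, with Tom+ as filled red and Tom- as open blue points, and the numbers of genes higher and lower in both libraries of those tested beside each name. The interstitial progenitor list lies at 1.92 and 2.0 and the committed preadipocyte list at -1.39 and -1.78, while senescence genes lie near 0.

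Genes of the same families as the score genes are given beside the 4.64% higher and 4.14% lower over all genes. Of 22 other genes of sphingolipid metabolism and its receptors, Sgms2, a sphingomyelin synthase, was higher and Sphk1, which makes sphingosine 1-phosphate, was lower. None of the 4 other proprotein convertases tested (Furin, Mbtps1, Pcsk5 and Pcsk7) and neither of the IgLON genes tested (Negr1 and Iglon5) was past 1.5-fold in both libraries. Of 20 genes that build or sulfate glycosaminoglycan chains, Ext1, Sulf1, Sulf2, Hs6st1 and Ust were higher and Csgalnact1 lower. Ext1, which polymerizes heparan sulfate, was at 219 and 184 CPM against 97.0 and 77.8.

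Hyaluronan genes and guidance cues held several higher genes. Of 6 hyaluronan genes, 3 were higher and none lower. Has2, a hyaluronan synthase, was at 96.4 and 169 CPM against 34.1 and 30.1, Ugdh, which makes its glucuronic acid precursor, at 1489 and 2185 against 638 and 783, and Vcan, the versican that binds hyaluronan, at 248 and 326 against 150 and 141. Of 19 axon guidance and neurotrophic genes, 10 were higher and Ntrk2 lower, with medians of 0.72 and 0.69. Sema3e was at 53.9 and 43.1 CPM against 6.4 and 3.61, Ntrk3, the neurotrophin 3 receptor, at 71.4 and 52.6 against 17.8 and 11.1, and Ntn4, a netrin, at 154 and 136 against 61.1 and 46.1. The other higher genes were Sema3c, Robo1, Sema3d, Plxdc2, Ntn1, Efna5 and Sema3b.

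Surface antigens gave 10 higher and 2 lower of 19, beside 4.64% higher and 4.14% lower over all genes. Ly6c1 was at 989 and 1090 CPM against 478 and 406, Ly6a (Sca-1) at 1865 and 2150 against 1209 and 1272, Cd34 at 517 and 527 against 263 and 235, and Thy1 at 35.1 and 64.6 against 18.8 and 20.9. The adhesion molecules Vcam1 (105 and 104 CPM against 205 and 267) and Icam1 (128 and 164 against 213 and 252) were the lower ones. The lists overlap, so their counts are not separate. Cd55, Cd248 and Ly6c1 were already counted among interstitial progenitor genes, as was Sema3c of the guidance genes. Vcam1 and Icam1 were counted among committed preadipocyte genes, and Cd55 is counted again under complement.

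Matrix genes were split. Of 18 elastic fibre and microfibril genes, Emilin2, Fbn1, Mfap5 and Efemp1 were higher and Mfap4, Fbln1, Lox, Eln, Emilin1 and Mfap2 lower. Fbn1, the fibrillin of microfibrils, was at 1770 and 1733 CPM against 757 and 512, while Eln, elastin, was at 334 and 170 against 714 and 377. Of 22 collagens, Col14a1 alone was higher, at 481 and 441 CPM against 184 and 121, and 6 were lower, among them the basement membrane chains Col4a1 (921 and 672 against 1508 and 1009) and Col4a2 and the related Col15a1. Of 10 small leucine-rich proteoglycans 4 were lower (Fmod, Bgn, Podn and Lum), and of 16 matrix proteases and inhibitors 6 were lower and Timp3 and Adamts5 higher.

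Ligands and receptors moved in both directions. Of 17 genes of the BMP pathway, 3 were higher and 6 lower. Bmp6 was at 33.1 and 39.1 CPM against 5.13 and 6.71 and Bmp2 at 27.6 and 41.6 against 7.20 and 7.28, while the inhibitor Bambi was at 21.1 and 39.1 against 48.4 and 99.7 and the target Id1 at 94.8 and 78.1 against 149 and 165. Of 23 genes of the TGF-β and activin pathway, Tgfbr2, the type 2 receptor, was higher at 278 and 270 CPM against 139 and 122, as were Inhbb and Fstl1, and Tgfbi, Gdf10, Fst, Ctgf and Tgfb1 were lower. Of 14 Wnt genes, Sfrp4, Wnt11 and Wnt5a were higher and Sfrp1 lower.

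Of 10 FGF and PDGF genes, Fgf1, Fgf2 and Fgf18 were higher and Pdgfrl, Fgfrl1 and Fgf7 lower, and of 8 IGF genes Igfbp6 was higher and Igf1 and Igfbp7 lower. Of 14 complement and acute phase genes, 7 were lower and Cd55 higher. C4b was at 245 and 323 CPM against 731 and 833. Of 17 chemokines and cytokines, Tslp was higher, at 12.3 and 42.1 CPM against 4.10 and 7.10, and Cxcl12, the ligand of Ackr3, was lower at 372 and 253 against 703 and 904, as were Cxcl13, Cxcl14, Il33 and Il6. The median of this list was -0.31 in Tom+ and 0.15 in Tom-, so its sign differed between the libraries.

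Of 28 mesenchymal and positional transcription factors, Creb5, Tcf21, Osr2 and Zeb1 were higher and Prrx2, Foxp2, Runx1 and Twist2 lower. Of 7 prostaglandin genes, Ptgs2 and Ptgis were higher and Ptgds lower, with Ptgs2 (cyclooxygenase 2) at 408 and 886 CPM against 220 and 447. Of 13 retinoid and steroid genes, Esr1 and Nr3c1 were higher and Hsd11b1 and Rbp4 lower, of 6 integrin subunits Itga11 was higher, and of 9 contractile genes Acta2, Tagln and Mylk were lower. No gene was past the fold in the same direction in both libraries among 13 mitochondrially encoded, 76 ribosomal protein or 3 cell division genes.

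Genes that respond to tissue dissociation, here an enzymatic digestion with Liberase, were close between the groups. Of 30 AP-1 and early response genes none was higher and Gadd45b and Nr4a2 were lower. Of 13 senescence and cell cycle inhibitor genes none was past the fold against the rest in the same direction in both libraries. Past it in Tom- alone were Igfbp5 (2.62 on the log2 scale), Cdkn1b (0.64) and Igfbp3 (-0.81), and in Tom+ alone Lmnb1 (0.60). Cdkn1a (p21) was at 277 and 307 CPM against 278 and 283. Cdkn2a, which encodes p16, had 21 UMIs in the 229 Tom+ cells and 2 in the 171 Tom- cells, or 6.82 and 1.0 CPM against 4.55 and 4.27 in the rest.

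The genes followed the score beyond its limit over the whole range, but not at every step. In Tom+ cells, Efhd1 was at 204 CPM in cells ranked 1 to 100, 60.6 in ranks 201 to 400, 28.9 in ranks 401 to 600 and 2.48 in ranks 3201 to 7010. Sema3c went from 471 CPM through 218 and 156 to 18.6 in the same ranks. Mgp went the other way, from 41.6 CPM through 153 and 275 to 1990. In Tom- cells the first and last values were 242 and 3.08 for Efhd1, 504 and 13.5 for Sema3c, and 38.6 and 2399 for Mgp. Across the limit, from ranks 201 to 400 to ranks 401 to 600, Tom- Efhd1 went from 140 to 64.4 CPM, Cd55 from 539 to 284 and Nov, of which 3 of the 171 Tom- cells held 35.1%, from 114 to 26.5. In Tom+ the same genes were at 60.6 and 28.9, 375 and 307, and 72.9 and 31.5. In ranks 601 to 800 these genes were higher again in Tom-, with Efhd1 at 77.5 CPM, Cd55 at 307 and Nov at 52.5. In Tom+ they were at 21.7, 233 and 27.3 CPM there.

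**Figure D4:**
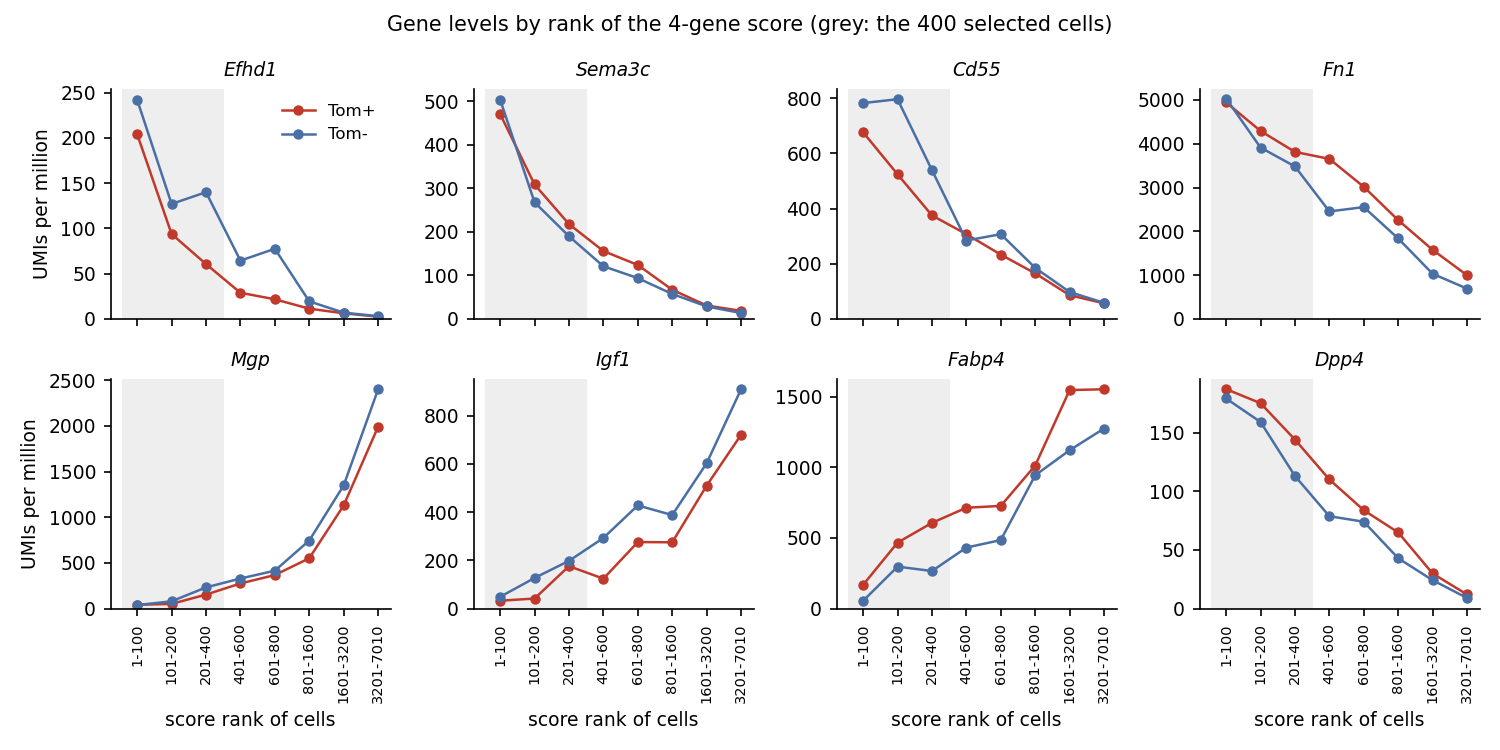
Levels of 8 genes in CPM by rank of the 4-gene score, with Tom+ in red, Tom- in blue and the 400 selected cells on grey. Efhd1, Sema3c, Cd55, Fn1 and Dpp4 are higher at the left than at the right and Mgp, Igf1 and Fabp4 higher at the right. Where the grey ends, Cd55 falls from 539 to 284 CPM in Tom- and from 375 to 307 in Tom+.

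Neighbours in expression space were counted with the 4 score genes left out. Of the 20 nearest cells of the same library, 46.9% on average were also among the 400, which were 6.37% of the cells they could be drawn from. The shares were 47.2% in Tom+, of 8.12%, and 46.5% in Tom-, of 4.08%. Over 10 of the 20 neighbours were selected cells for 48.0% of the 400, and 4.50% had none. When the 713 cells over the Pi16 and Dpp4 limit were added, and these 2 genes left out as well, they made up 31.7% of the neighbours of the 400 and 2.53% of those of the rest, of 9.23% of all cells. The share of the 400 among their own neighbours was then 26.7%, of 5.18%.

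Clustering of the gate without the score genes put 51.5% of the 400 in one and 39.0% in another of 14 clusters, which are named here by number. Cluster 1, led by Nov, Efhd1, Sfrp4, Sema3c and Cd55, held 206 of them (89 Tom+ and 117 Tom-) among its 459 cells. Of these 459 cells 39.7% were Tom+, beside 40.2% of the gate. Cluster 2, led by Edn1, Chchd10, Dpp4, Sox4 and Peg3, held 156 (124 Tom+ and 32 Tom-) among its 1036 cells, of which 78.9% were Tom+. Its leading genes also held Mmp11, which with Chchd10 and Rab3b chose a set of cells compared below. The 2 clusters thus held the Tom+ and Tom- cells of the 400 in different proportions.

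Levels are given by cluster as a description, since Nov and Efhd1 led cluster 1 and Smpd3 chose the cells. Nov was at 188 CPM in Tom+ and 154 in Tom- of the 206 cells in cluster 1 and at 22.6 and 21.6 in the others of the 400. Efhd1 was at 170 and 213 CPM in cluster 1 and 54.5 and 44.9 elsewhere. Fabp4 was at 200 and 98.9 CPM in cluster 1 and 655 and 500 elsewhere. Smpd3, used by the rule, was level, at 444 and 438 against 474 and 417.

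The 432 cells over the limit with the same score were the nearest comparison. Of 8040 genes, 129 (1.60%) were at least 1.5-fold higher in the 400 in both libraries and 107 (1.33%) lower. Fabp4 was 2.10 higher in Tom+ and 2.0 in Tom- on the log2 scale, at 469 and 220 CPM against 109 and 54.9. Sema3c was at 301 and 282 CPM in the 400 and 729 and 792 in the 432 cells, Efhd1 at 102 and 163 against 269 and 338, and Sbsn, a protein of keratinized epithelium, at 68.2 and 173 against 323 and 688. These 3 genes were higher still over the limit. The score chose both sets, so its genes are a description: Smpd3 was at 462 and 432 CPM in the 400 against 446 and 415 over the limit, Pcsk6 at 366 and 400 against 558 and 544, Chst1 at 93.5 and 105 against 117 and 130, and Opcml at 188 and 170 against 204 and 159. Mgp was low in both, at 97.7 and 156 CPM against 110 and 172.

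Higher in the 400 than over the limit were also Fabp5, Col6a5, Gas6, Apoe, Sox4, Steap4 and Col6a6. Lower were Krtdap, Dmkn, Igfbp5, Dact2, Gm15675 and Tmem100. Krtdap was lower by 3.75 and 3.61 and Igfbp5, an insulin-like growth factor binding protein, by 2.82 and 2.64.

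The 400 highest cells of the same gate for Tnfrsf11b, Has1 and Sfrp4 shared 63 cells (15.8%) with those described here, those for Chchd10, Rab3b and Mmp11 shared 7 (1.75%), and those for Vtn, Cxcl14 and G0s2 shared none. Sema3c was at 174 CPM in Tom+ and 104 in Tom- of the Tnfrsf11b cells, 27.0 and 22.2 in the Chchd10 cells and 2.51 and 8.84 in the Vtn cells. Mgp was at 3028 and 2555 CPM in the Tnfrsf11b cells, against 97.7 and 156 here. Other genes were closer: in the Tnfrsf11b cells Cd55 was at 470 and 374 CPM (486 and 647 here), Ly6c1 at 969 and 857 (989 and 1090), Nov at 76.4 and 73.1 (90.3 and 114) and Fn1 at 3237 and 2498 (4206 and 3946). These sets were also chosen by their expression, so their values are a description.

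Between the sorts, the reporter was the first check of the labels. The tdTomato transcript was at 87.7 CPM (270 UMIs) in the 229 Tom+ cells and 11.5 CPM (23 UMIs) in the 171 Tom- cells, a log2 difference of 2.90 (2.31 to 3.61), and at 158 and 13.5 CPM in the rest. In the 100 cells of highest score it was at 16.4 CPM (11 UMIs) in 53 Tom+ and 20.3 CPM (10 UMIs) in 47 Tom- cells, so the Tom+ value was not the higher there. Few cells carried it: 7 of the 229 (3.06%, 1.24 to 6.20) had 5 or more UMIs and held 219 of the 270, and the others were at 17.1 CPM. None of the 171 Tom- cells had 5 or more, which allows a share of up to 1.75% when counted as 3 cells of 171 and 2.13% as the upper Clopper-Pearson limit. In the rest, 174 of 2590 Tom+ cells (6.72%, 5.78 to 7.75) and none of the 4020 Tom- cells did.

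Of 3022 genes that reached 50 CPM on average over the sorts, 118 (3.90%) were at least 1.5-fold higher and 89 (2.95%) lower in the Tom+ than in the Tom- cells of the 400, with a median over all of 0.065 on the log2 scale. Mdk, the growth factor midkine, was at 126 CPM in Tom+ and 28.0 in Tom-, higher by 2.16 (1.76 to 2.60), and by 1.12 in the rest. Slco2a1, a prostaglandin transporter, was at 99.4 and 27.0 CPM, higher by 1.87 (1.46 to 2.32), and by 0.87 in the rest. Apoe, apolipoprotein E, was at 1288 and 517 CPM, higher by 1.32 (1.22 to 1.42), and by 0.05 in the rest. Txnip, Nmb and Tgfbi were also among the 8 highest. Macrophages express Apoe too, although both libraries were sorted as negative for CD45, which macrophages carry. The macrophage marker Lyz2 was at 51.0 CPM in Tom+ and 3.5 in Tom- of the 400, with the summed markers given above. The part of macrophages in the difference was not tested.

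Igkc and Ighm, immunoglobulin genes that stromal cells do not express, made up the other 2 of the 8, at 559 against 153 and 153 against 40.6 CPM. They differed alike in the rest (1.53 and 1.63 on the log2 scale), and over all barcodes Igkc was at 42442 CPM in the Tom+ and 7525 in the Tom- library. The part of free RNA in this difference was not tested.

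The lowest in Tom+ were Cxcl10, Sfrp4, Has1, Cxcl1, Ptx3, Ccl7, Tnfaip6 and Iigp1. Sfrp4, a secreted Wnt antagonist, was at 40.9 CPM in Tom+ and 190 in Tom-, lower by 2.21 (-2.52 to -1.92), and differed by 0.058 in the rest. Has1 was at 314 and 1070 CPM, and Cxcl1, a chemokine for neutrophils, at 2032 and 6129, with -1.59 in the 400 and -1.31 in the rest. Of 10 chemokines and cytokines tested, 7 were lower in Tom+ in the 400, beside 2.95% of all 3022 genes. The median of the list was -0.95 in the 400 and -0.87 in the rest, beside 0.065 and 0.090 over all genes. The difference in this list was thus found in both groups of cells.

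**Figure D5:**
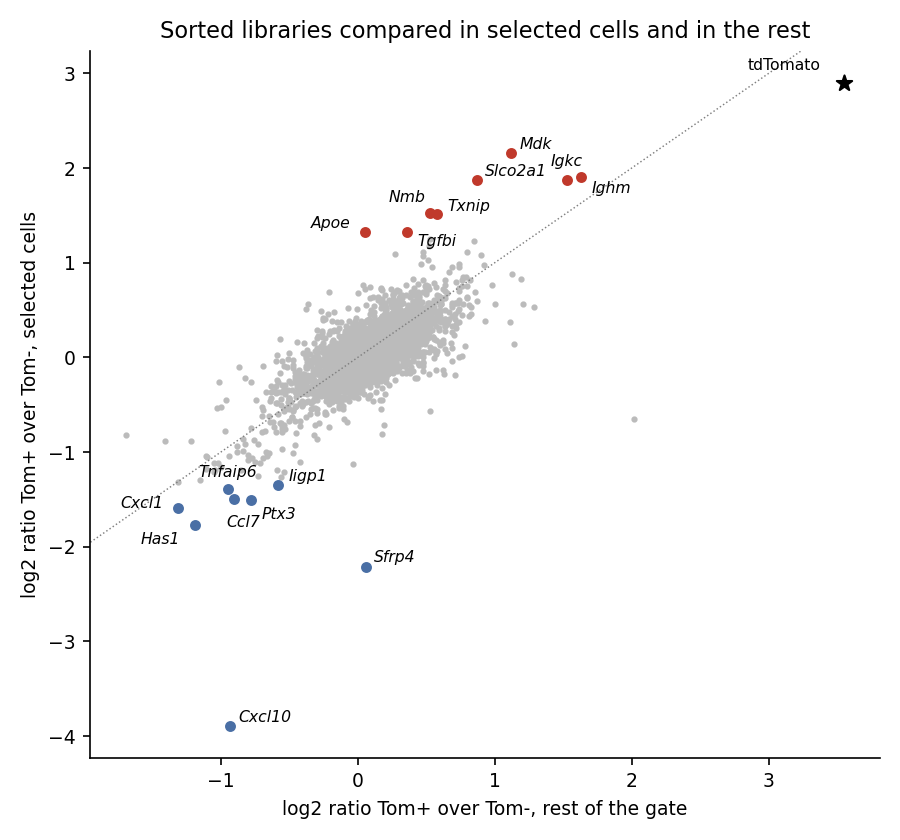
Each point is a gene that reached 50 CPM on average, or tdTomato (star), placed by its log2 ratio of Tom+ over Tom- in the rest of the gate (x) and in the 400 selected cells (y), with equal ratios on the dotted line, the 8 highest in red and the 8 lowest in blue. Apoe (0.05 and 1.32) lies above the line and Sfrp4 (0.058 and -2.21) and Cxcl10 (-0.93 and -3.89) under it.

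Since clusters 1 and 2 held the sorts unequally, the Tom+ and Tom- cells were also compared within cluster 1 (89 and 117 cells). Slco2a1 was then higher in Tom+ by 2.20, Apoe by 1.17, Txnip by 1.13 and Mdk by 0.97 on the log2 scale, and Cxcl10 was at -2.97, Sfrp4 at -1.86, Has1 at -1.34 and Cxcl1 at -1.12. Each of the 8 kept its direction, and all of these but Slco2a1 were nearer to 0 than over the 400. Within cluster 2 (124 and 32 cells) Slco2a1 was at 1.71, Apoe at 1.33, Mdk at 1.70, Cxcl10 at -3.05 and Cxcl1 at -1.05, while Txnip was at 0.34 (0.13 to 0.57), Sfrp4 at -0.87 (-1.91 to 0.38) and Has1 at -0.30 (-0.79 to 0.26), the last 2 with intervals that held 0. For Txnip and Has1 the intervals of the clusters did not overlap, and those of Sfrp4 did (-2.22 to -1.54 in cluster 1). tdTomato was 3.32 higher in Tom+ within cluster 1 (2.66 to 4.12) and 1.29 within cluster 2 (0.0069 to 3.37). Of 2973 genes, 105 were past 1.5-fold higher and 86 lower within cluster 1.

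Other genes that the study named were measured as well. For Myc, Junb, Fosl1, Cebpb and Sox4 the study gave activity scores from an inferred regulatory network, while the values here are transcript levels. Myc was at 140 CPM in Tom+ and 270 in Tom- of the 400, Cebpb at 1260 and 2664, and Junb at 4523 and 6110, with log2 differences of -0.94, -1.08 and -0.43, against -0.88, -0.80 and -0.50 in the rest. Fosl1 was at 33.4 and 57.1 CPM, a difference of -0.77 (-1.17 to -0.37), against -1.03 in the rest. Sox4 went the other way, at 208 CPM in Tom+ and 141 in Tom-, a difference of 0.56 (0.36 to 0.77), against 1.21 in the rest. Tgfbr2 was at 278 and 270 CPM, a difference of 0.042 (-0.11 to 0.20), and Cdkn1a at 277 and 307, a difference of -0.15 (-0.30 to 0.0057). Mmp2, a gelatinase, was at 648 and 347 CPM, higher in Tom+ by 0.90 (0.77 to 1.03), and by 0.67 in the rest.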

How the data were processed

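The authors sequenced 1 Tom+ and 1 Tom- library (10x Genomics, 3′) and processed the reads with Cell Ranger 3.0.2 against mm10; the deposited matrices hold raw UMI counts for 31054 genes, with 61119807 UMIs in 5566 Tom+ barcodes and 96872394 in 11838 Tom- barcodes. The 400 cells and the gene lists were chosen with earlier results of these data known. Counts were summed over cells per library and group with Python 3.11.15, numpy 2.4.6 and scipy 1.17.1. Ratios used a prior of 0.5 UMIs, exact conditional intervals for ratios, exact Poisson intervals for levels and Clopper-Pearson intervals for shares, all for counting error only. With 1 library a sort, no test was run and no paired fit exists. Genes were named by rule: the 20 highest and 12 lowest ratios, by the library nearer to 0, the 8 highest and lowest between sorts and against cells over the Pi16 and Dpp4 limit, at 50 CPM or more, and genes named by the study. A gene counted as higher or lower past 1.5-fold in both libraries, at a mean of at least 10 CPM. On simulated sums, 97 of 100 raised and 79 of 100 lowered genes were found. Of the lowered genes, 13 fell under this minimum and 8 passed it but were not called. Neighbours and clusters came from scanpy 1.11.5 (2000 variable genes, 30 components, 20 neighbours). Scrublet, run per library, called 2 Tom+ and 0 Tom- barcodes and so did not work here, and doublets were not removed. Alternatives were other scores, sizes, filters, thinning and scalings. A gene list that was also read is not reported here.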

Additional observations from a re-analysis of the deposited data

Results flagged for a closer look

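Among 2968 genes that reached 50 CPM on average, Cxcl10, a chemokine induced by interferon, was the only one past 1.5-fold in opposite directions against the rest in the 2 libraries. It was at -2.02 on the log2 scale (-2.61 to -1.53) in Tom+ and 0.94 (0.76 to 1.10) in Tom-, and the difference was not tested, since each sort has 1 library. The 171 Tom- cells held 303 UMIs of Cxcl10, of which 3 cells held 49.8%, and the 229 Tom+ cells held 31.

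The 432 cells over the Pi16 and Dpp4 limit with a score as high as that of the 400 are outside the comparisons against the rest. Tom+ cells were 45.6% of them (40.8 to 50.4), and 51.2% (47.7 to 54.6) of both sets together. Before the limit, cells of such a score were 13.8% (12.6 to 15) of 3091 Tom+ and 8.77% (7.97 to 9.62) of 4632 Tom- cells.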

How the results depend on the processing

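The Tom+ share of the 400, the counts of higher and lower genes, the share of selected cells among neighbours, the tdTomato difference and the count of genes past the fold between sorts were recomputed in 92 alternatives, 2 kinds of which (leaving out barcodes found in both libraries, and no Pi16 and Dpp4 limit) were chosen after seeing the data. None of these reversed, and 81 stayed close. The 81 include the alternatives without doublets called by Scrublet, which called no cell of the gate. Those had to equal the main values and say nothing on stability. The Tom+ share was 50.0% with the 200 highest cells of each library, which sets it. Without a filter beyond 1 UMI in each sum, 973 genes were higher and 760 lower. The share among neighbours was 37.4% without Pcsk6 in the score and 40.3% without Opcml, of 6.56% and 6.04% of cells, and 36.4% with 200 and 52.3% with 800 cells, of 3.34% and 12.4%. The tdTomato log2 difference was 2.12 with 200 cells and 1.62 with no limit on Pi16 and Dpp4. Between sorts 1001 genes were past the fold from a mean of 10 CPM and 105 from 100 CPM. No paired analysis was possible because each sort has 1 library. Low counts limit tdTomato and Cdkn2a, whose values rest on few cells.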

Other observations

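The share of Tom+ cells did not follow the score evenly. It was 53.0% in ranks 1 to 100, 69.0% in ranks 101 to 200, 53.5% in ranks 201 to 400, 49.5% in ranks 401 to 600 and 34.0% in ranks 3201 to 7010. Igfbp5, which was among the genes lower in the 400 than over the Pi16 and Dpp4 limit, went with the sorts in opposite ways: it was at 108 CPM in Tom+ and 169 in Tom- of the 400, and at 112 and 27.6 in the rest, and the difference was not tested. Tek and Edn1 were in cluster 2's leading genes, and Nov, Efhd1 and Has2 in those of cluster 1. Wt1, a gene of mesothelial cells and visceral progenitors, was at 190 and 306 CPM in the 400 and 180 and 265 in the rest.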
